A study of Homo sapiens with 9 samples.

Results

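The comparison set 3 libraries of MDA-MB-231 cells that expressed a hairpin against UGDH, shUGDH-2, against 3 libraries that expressed a non-targeting hairpin, shNT. These are 6 of the 9 libraries in the series, and the other 3 carried a different hairpin against the same gene, shUGDH-1. Libraries were chosen by their column in the deposited count table, and no measured value entered the choice. Of 23710 entries in that table, 12546 genes had enough counts to be tested. MDA-MB-231 is an established human triple-negative breast cancer line with mesenchymal features. All 3 groups were transduced with lentivirus from the pGIPZ vector, which integrates and expresses the hairpin, so the control cells carry the vector and a hairpin as well. The label for the hairpin lists shNT before the name of the hairpin in every group, and the titles and the hairpin sequences tell the groups apart. Total RNA was taken from trypsinized cells and read as an mRNA library.

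UGDH encodes UDP-glucose 6-dehydrogenase, which oxidises UDP-glucose to UDP-glucuronate in the cytosol. UDP-glucuronate is the sugar donor for hyaluronan and for the heparan and chondroitin sulfate chains of proteoglycans, and for the glucuronidation of drugs, steroids and bilirubin. A short hairpin RNA is processed into a guide strand that directs the RNA-silencing complex to complementary mRNA, and the bases next to the guide's 5′ end, the seed, can also pair with sites in other transcripts.

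The 3 hairpin sequences given in the labels, 5′ to 3′ with the seed (bases 2 to 8) in capitals, show that each hairpin has its own seed:
shNT: aTCTCGCTtgggcgagagtaag
shUGDH-1: tTGCATCAaatatgcgacg
shUGDH-2: aTATACTTcagatctgctg
The shUGDH-2 sequence is antisense to UGDH mRNA. Its full match lies in the coding part of exon 4 at chr4:39510800-39510818 on the minus strand (GRCh38), and 8 annotated UGDH transcripts contain it. The target, with the bases that pair with the seed in capitals, reads:
UGDH site: cagcagatctgAAGTATAt
A search for up to 3 mismatches over annotated transcripts found 41 other genes, of which 20 were tested. None of these 20 passed for shUGDH-2 against shNT, where 14.9% of all genes tested passed. Their log2 fold changes ran from -0.29 to 0.16, and the smallest adjusted p was 0.072 (edgeR's quasi-likelihood test, Benjamini-Hochberg adjusted).

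The 9 libraries held 9249738 to 13328002 counts. Compared pairwise within groups, libraries showed a variance 1.2 to 1.91 times that of counting noise, and shNT replicate 1 gave the highest ratios, 1.91 and 1.87, with the other two shNT libraries. The labels call them biological replicates without saying if transductions were separate; p-values reflect only the spread among these cultures. All 12 markers of mesenchymal and basal breast cells were detected, VIM, AXL and CD44 among them, while the luminal receptor gene ESR1 had 1 count over the 9 libraries and PGR had none. Other luminal markers were present, and 8 of the 15 were tested. The keratin genes KRT8, KRT18 and KRT19 had 77839, 50428 and 17614 counts, and XBP1, GATA3 and EPCAM had 9590, 4511 and 1020. Of 15 leukocyte markers, 9 had 20 counts or fewer in all, CD3E and MS4A1 had none, and the summed level ran from 103.8 to 111.1 CPM (counts scaled to library size) with shNT and from 96.19 to 101.2 with shUGDH-2. CD68, a lysosomal protein gene, held 9826 of these counts over the 9 libraries and no other marker more than 360. Of 12 fibroblast markers, PDGFRB, COL1A1, FBLN1 and COL1A2 were present, with 2296, 1236, 990 and 779 counts over the 9 libraries. The other 8 had 20 counts or fewer, and DCN and LUM had none.

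UGDH itself was measured at 53, 55.6 and 50.3 CPM with shNT and 8.09, 6.62 and 6.79 CPM with shUGDH-2 (with library sizes scaled by TMM, edgeR's normalization). Every shUGDH-2 library lay far below every shNT library. Relative to shNT, UGDH had a log2 fold change of -2.89 (SE 0.08, adjusted p = 1.2e-36, edgeR's quasi-likelihood test, adjusted over all genes tested after Benjamini-Hochberg, as in all tests here). The authors' deposited table gives a log2 fold change of -2.75 for UGDH.

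With shUGDH-2, 1009 genes rose and 855 fell at an adjusted p under 0.05, which is 8.04% and 6.81% of the genes tested and 14.9% together. Percentages of list members below are to be read beside these shares. Genes that passed had a median absolute log2 fold change of 0.18, so most changes were small. A change of at least 1.5-fold was reached by 91 of the higher and 19 of the lower genes. Against the same controls shUGDH-1 raised 1318 genes (10.5%) and lowered 1287 (10.3%). Of the 1864 genes that passed with shUGDH-2, 1045 also passed in the same direction with shUGDH-1, 53 passed in the opposite direction and 766 did not pass with shUGDH-1. Both comparisons share the shNT libraries, so these counts are a description and not an overlap test. The test of shUGDH-2 against shUGDH-1 gave 672 genes higher (5.36%) and 691 lower (5.51%) with shUGDH-2. A gene is called shUGDH-2-only below when it passed against shNT, passed in the same direction against shUGDH-1, and did not pass for shUGDH-1 against shNT. That rule gave 147 higher genes (1.17%) and 120 lower genes (0.956%). The other 499 genes that passed with shUGDH-2 alone did not pass the test between the hairpins and are not called particular to it.

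**Figure D1:**
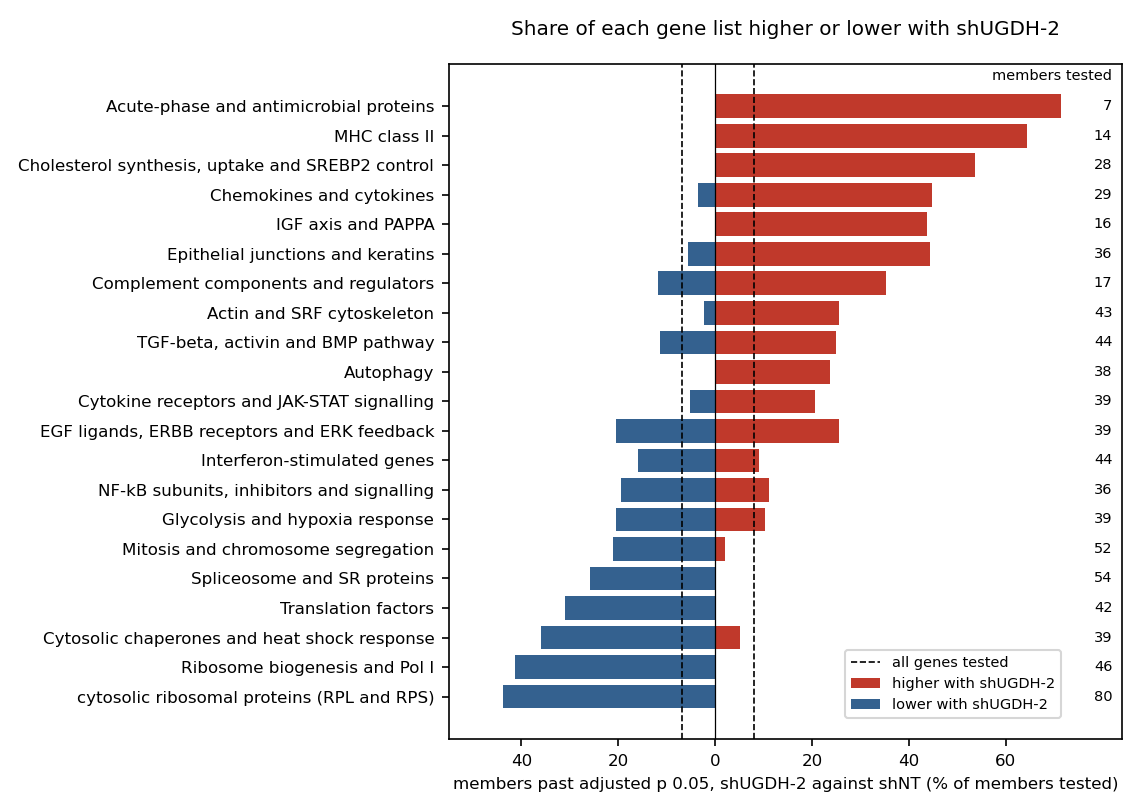
Share of the tested members of 21 gene lists that were higher (red, to the right) or lower (blue, to the left) with shUGDH-2 than with shNT at an adjusted p under 0.05, in percent of the members tested, whose number stands at the right. Dashed lines mark the shares over all genes tested, 8.04% higher and 6.81% lower; the acute-phase and class II lists reach furthest to the right and the ribosomal protein and ribosome biogenesis lists furthest to the left.

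Of 35 UDP-sugar and glucuronidation genes 5 fell (14.3%, against 6.81% of all genes tested), UGDH among them, and 2 rose; with DESeq2 1 fell and none rose, and 2 or 3 fell without shNT replicate 1, shNT replicate 3, shUGDH-2 replicate 1 or shUGDH-2 replicate 2. UAP1 and GNPNAT1, which make the UDP-N-acetylglucosamine that hyaluronan also needs, fell, with log2 fold changes of -0.12 and -0.19. Both calls were lost with DESeq2 and without shNT replicate 1. That of UAP1 was also lost without shUGDH-2 replicate 3, and that of GNPNAT1 without shUGDH-2 replicate 2. Of 10 hyaluronan genes 1 rose (10%): KIAA1199, which encodes a protein of hyaluronan breakdown, went from 165 ± 4.41 CPM to 187 ± 2.93 CPM (SD, n = 3). Heparan and chondroitin sulfate enzymes rose in 9 of 34 cases (26.5%, against 8.04% of all genes tested) and fell in 3 (5 rose with DESeq2, and 5 without shUGDH-2 replicate 2). XYLT2, a xylosyltransferase that starts the chains, was at 45, 43.4 and 44.6 CPM with shNT and 51.2, 52.4 and 49.9 CPM with shUGDH-2, and the shNT and shUGDH-2 libraries did not overlap (+0.21, SE 0.05, adjusted p = 0.0043). FAM20B, the xylose kinase of the linker, fell (-0.20), and DSE, an epimerase that turns chondroitin into dermatan sulfate, was shUGDH-2-only (+0.18, adjusted p = 0.014). The call of DSE was lost with DESeq2 and without shNT replicate 2, shUGDH-2 replicate 1 or shUGDH-2 replicate 2. Among 15 proteoglycan core genes 4 rose (26.7%) and 3 fell (20%; 1 with DESeq2). SDC4, the core of syndecan 4, was at 332, 327 and 317 CPM with shNT and 398, 408 and 401 CPM with shUGDH-2, with 356, 345 and 369 CPM with shUGDH-1; it rose with both hairpins and further with shUGDH-2 (log2 difference +0.18, adjusted p = 1.3e-07). CSPG4 moved in opposite directions, with log2 fold changes of -0.22 (adjusted p = 0.018) and +0.50 (adjusted p = 5.1e-09); its call with shUGDH-2 was lost with DESeq2 and without shNT replicate 2, shNT replicate 3 or shUGDH-2 replicate 2.

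Of 7 tested acute-phase and antimicrobial genes 5 rose and none fell, where 8.04% of all genes tested rose. In bulk RNA a larger share of cells that express a gene and more of its RNA per cell cannot be told apart. SAA1, a serum amyloid A apolipoprotein of the acute-phase response, was at 254, 262 and 255 CPM with shNT and 381, 369 and 382 CPM with shUGDH-2, with 250.3, 255 and 248 CPM with shUGDH-1. Its neighbour SAA2 was at 33.2, 25.5 and 29.2 CPM with shNT and 58.7, 61.5 and 56.7 CPM with shUGDH-2, with 33.3, 32.9 and 32.1 CPM with shUGDH-1. For both genes the 3 shUGDH-2 libraries stood above all other libraries and shUGDH-1 stayed near the control level. The log2 fold changes were +0.56 (SE 0.03, adjusted p = 9.5e-27) and +1.00 (SE 0.06, adjusted p = 4.5e-20), against -0.03 and +0.16 with shUGDH-1, and both genes were shUGDH-2-only. SAA1 and SAA2 are close paralogs, and reads that fit both could have been split or dropped in the authors' counting. LCN2, lipocalin 2, which binds bacterial iron carriers, was at 3.38, 3.83 and 4.43 CPM with shNT and 15.2, 15.3 and 14 CPM with shUGDH-2, with 6.39, 5.34 and 6.73 CPM with shUGDH-1. It rose with both hairpins and further with shUGDH-2 (log2 difference +1.28, adjusted p = 8.9e-13). TFPI2, a Kunitz-type inhibitor of serine proteases, went from 204 ± 5.62 CPM to 263 ± 4.18 CPM (SD, n = 3) and was shUGDH-2-only, and the elastase inhibitor gene SERPINA1 rose with both hairpins, by +0.39 and +0.25 on the log2 scale.

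Among 17 complement genes 6 rose (35.3%) and 2 fell (11.8%), against 8.04% and 6.81% of all genes tested. C3, the central component of the cascade, was at 16.2, 18.9 and 17.1 CPM with shNT and 49.5, 43.5 and 43.8 CPM with shUGDH-2, with 28, 27.1 and 27.6 CPM with shUGDH-1. No library of one group overlapped another: shUGDH-2 was highest, shUGDH-1 intermediate and shNT lowest. On the log2 scale C3 changed by +1.39 with shUGDH-2 (SE 0.07, adjusted p = 3.9e-24) and by +0.66 with shUGDH-1, and the difference passed (adjusted p = 1.9e-13). The paired proteases of the classical pathway, C1S and C1R, moved with shUGDH-2 only. C1S was at 5.07, 5.1 and 5.28 CPM with shNT and 8.09, 9.16 and 7.35 CPM with shUGDH-2, with 4.08, 5.72 and 3.47 CPM with shUGDH-1, and C1R was at 10.4, 9.69 and 10.2 CPM with shNT and 15.9, 13.7 and 12 CPM with shUGDH-2, with 9.86, 10.6 and 10.6 CPM with shUGDH-1. In both cases every shUGDH-2 library exceeded every shNT library. Their log2 fold changes were +0.67 (adjusted p = 0.0007) and +0.45 (adjusted p = 0.002). The call of C1R was lost without shUGDH-2 replicate 1. CFB, factor B of the alternative pathway, rose by +0.37, the chaperone and fluid-phase regulator gene CLU by +0.12 and the membrane regulator gene CD55 by +0.10 on the log2 scale. None of these 3 calls held with DESeq2; that of CFB was also lost without shNT replicate 2, shNT replicate 3 or shUGDH-2 replicate 1, and those of CLU and CD55 without shNT replicate 1 or shUGDH-2 replicate 3. CFP, which encodes properdin, the stabiliser of the alternative convertase, was the shUGDH-2-only member that fell (-0.63, SE 0.16, adjusted p = 0.0036). With DESeq2 the count of higher members was 3 and that of lower members 1.

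Chemokine and cytokine genes rose in 13 of 29 cases (44.8%), with 1 lower (3.4%). IL1A and IL1B, the interleukin 1 ligands, were at 19.6, 21.7 and 20.3 CPM with shNT and 29.4, 29 and 28.3 CPM with shUGDH-2, and at 19, 21.8 and 18.4 CPM with shNT and 29.5, 27.9 and 28.4 CPM with shUGDH-2, respectively. All shUGDH-2 libraries exceeded all shNT libraries for both. IL1A was shUGDH-2-only (log2 fold change +0.50, adjusted p = 1.3e-06, against +0.12 with shUGDH-1), whereas IL1B rose with both hairpins (+0.53 and +0.34). CSF2, which encodes the myeloid growth factor GM-CSF, was at 270.5, 276 and 295 CPM with shNT and 374, 356 and 384 CPM with shUGDH-2, with 284, 295 and 294 CPM with shUGDH-1. Every shUGDH-2 library exceeded all others, and the gene was shUGDH-2-only (+0.41, SE 0.03, adjusted p = 5e-17). TNFSF15, a TNF superfamily ligand, was at 11.6, 11.4 and 11.5 CPM with shNT and 17.9, 14.9 and 17.3 CPM with shUGDH-2, with 10.5, 12.4 and 10.6 CPM with shUGDH-1, and the granulocyte factor gene CSF3 went from 7.35 ± 0.35 CPM to 9.66 ± 0.59 CPM (SD, n = 3). Both were shUGDH-2-only, as were the neutrophil chemokine genes CXCL2 (+0.20) and IL8 (+0.23). The call of IL8 was lost without shNT replicate 3 and without any 1 of the 3 shUGDH-2 libraries, and that of CSF3 with DESeq2, without shNT replicate 3 and without shUGDH-2 replicate 2. CXCL1 rose with both hairpins (+0.49 and +0.39), and its relative CXCL3 fell with both (-0.31 and -0.34). TNFSF9 (+0.43), LIF (+0.19) and IL32 (+0.18) rose too, without a difference between the hairpins that passed.

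IL6 and CSF1, the macrophage growth factor gene, moved in opposite directions with the 2 hairpins. IL6 was at 346, 374 and 366 CPM with shNT and 382, 382 and 412 CPM with shUGDH-2, with 314, 309 and 319.8 CPM with shUGDH-1. The shUGDH-2 libraries were above the shNT libraries and the shUGDH-1 libraries below them, with log2 fold changes of +0.12 (adjusted p = 0.0018) and -0.20 (adjusted p = 1.9e-07). CSF1 rose by +0.18 with shUGDH-2 and fell with shUGDH-1 (-0.11).

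**Figure D2:**
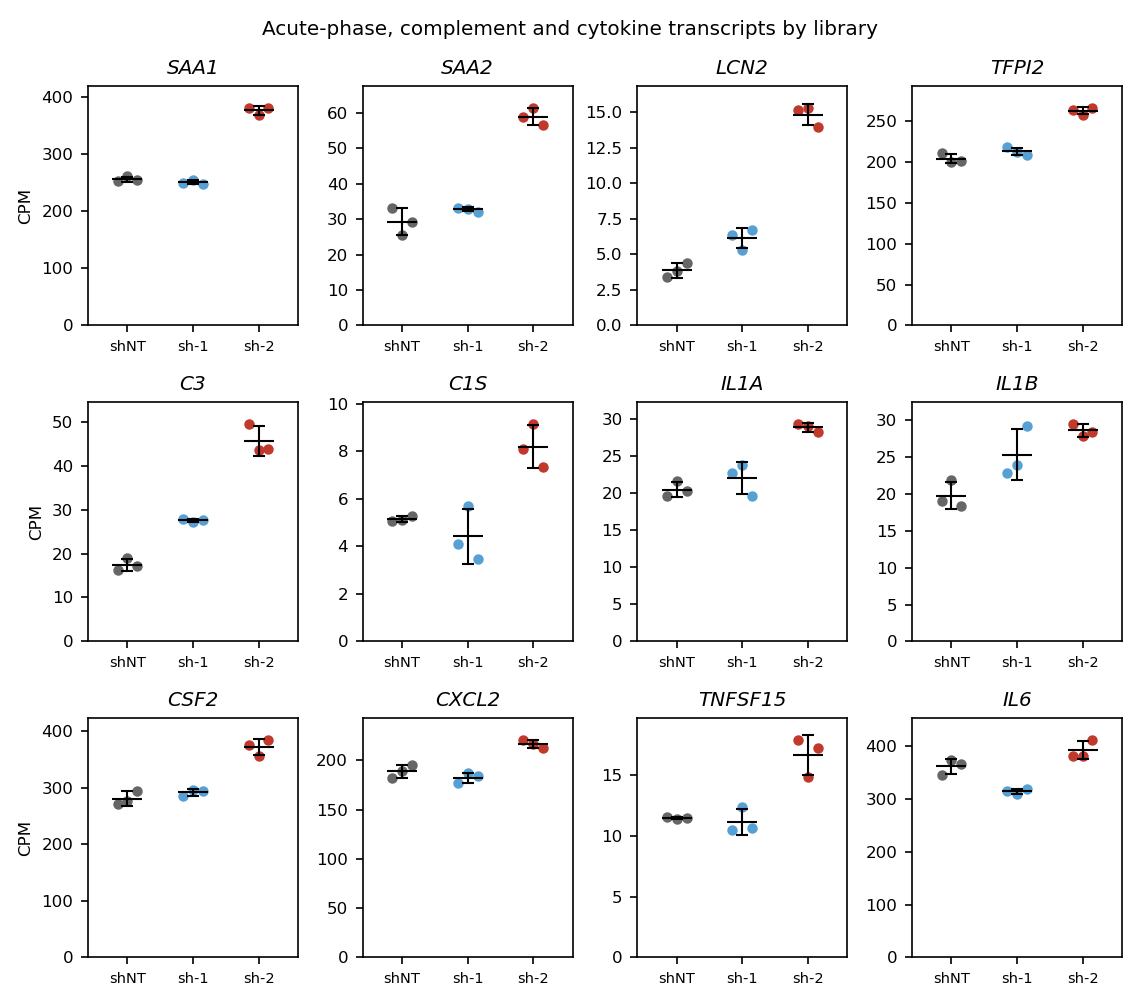
CPM of 12 acute-phase, complement and cytokine transcripts in each of the 9 libraries (points), with the group mean and SD (bars) for shNT (grey), shUGDH-1 (sh-1, blue) and shUGDH-2 (sh-2, red); each vertical axis starts at 0. SAA1, CSF2 and TFPI2 are raised in the shUGDH-2 libraries alone, LCN2 and C3 rise in steps, and IL6 is lowest with shUGDH-1.

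Of 39 cytokine receptor and JAK-STAT genes, 8 rose (20.5%) and 2 fell (5.1%), and with DESeq2 these counts were 4 and 0. SOCS1 and SOCS3, feedback inhibitors of cytokine signalling, went from 16.5 ± 1.49 CPM to 22.2 ± 2.42 CPM and from 35 ± 0.68 CPM to 44.4 ± 1.56 CPM (SD, n = 3). OSMR, the oncostatin M receptor subunit, and IL1R1, the interleukin 1 receptor, were shUGDH-2-only, with log2 fold changes of +0.23 and +0.26. The transcription factor genes STAT2 (+0.22) and STAT3 (+0.10) rose.

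NF-kB, the transcription factor family that many cytokine genes respond to, is held in the cytosol by inhibitors whose genes it also induces. Among 36 genes of its subunits, inhibitors and signalling, 4 rose (11.1%) and 7 fell (19.4%), against 8.04% and 6.81% of all genes tested. TNIP1, an inhibitor that binds ubiquitin chains, was at 294, 314 and 312 CPM with shNT and 386, 379.8 and 399 CPM with shUGDH-2, and rose with both hairpins and further with shUGDH-2 (+0.34, SE 0.03, adjusted p = 7.4e-17). BCL3, a nuclear cofactor, ZC3H12A, an RNase that degrades cytokine mRNAs, and IKBKE, a kinase, rose with shUGDH-2 only, by +0.30, +0.27 and +0.22. In the other direction NFKBIA, the main cytosolic inhibitor, was at 609.5, 624 and 616 CPM with shNT and 544, 546 and 548 CPM with shUGDH-2. All shUGDH-2 libraries lay below all shNT libraries (-0.17, SE 0.02, adjusted p = 9e-10). The deubiquitinase gene TNFAIP3 (-0.15) and the kinase gene MAP3K14 (-0.25) fell as well, both also with shUGDH-1. Of the 7 lower members, 1 met the shUGDH-2-only rule. The count of 7 lower members dropped to 3 with DESeq2, to 3 without shNT replicate 1, to 4 without shUGDH-2 replicate 1 and to 4 without shUGDH-2 replicate 2.

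Interferon-stimulated genes showed no common direction. Of 44 tested, 4 rose (9.1%) and 7 fell (15.9%), against 8.04% and 6.81% of all genes tested. IFIT1, which binds foreign RNA, was at 31.3, 28.7 and 28.4 CPM with shNT and 23, 25 and 24.9 CPM with shUGDH-2, with 34.7, 33.8 and 30.4 CPM with shUGDH-1, and was shUGDH-2-only (-0.28, adjusted p = 0.0041). The guanylate-binding protein gene GBP2 rose with shUGDH-2 only (+0.29, adjusted p = 9.8e-05) and MX1 rose with both hairpins. The count of lower genes was 1 with DESeq2, 2 without shUGDH-2 replicate 3, and 3 or 4 without shNT replicate 2, shNT replicate 3, shUGDH-2 replicate 1 or shUGDH-2 replicate 2.

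Of 14 MHC class II genes tested, 7 rose with shUGDH-2 and fell with shUGDH-1, against the same shNT libraries. Class II molecules present peptides to CD4+ T cells; their genes share a promoter module of X and Y boxes, and the coactivator CIITA sets their transcription. Of 14 tested genes 9 rose (64.3%) and none fell with shUGDH-2, none rose and 8 fell with shUGDH-1, and the same 9 were higher with shUGDH-2 in the test between the hairpins. CIITA was at 19.4, 21.6 and 22.4 CPM with shNT and 25.4, 25.7 and 27.3 CPM with shUGDH-2, with 17.9, 19.3 and 20.1 CPM with shUGDH-1. CD74, the invariant chain that guides class II through the endosome, was at 428, 448 and 431 CPM with shNT and 517, 503 and 545 CPM with shUGDH-2, with 389, 387 and 387 CPM with shUGDH-1. HLA-DRA, the shared alpha chain of the DR molecules, was at 46.2, 45.8 and 45.1 CPM with shNT and 57.9, 55.8 and 57.5 CPM with shUGDH-2, with 30.1, 26.1 and 31 CPM with shUGDH-1. For CD74 and HLA-DRA the 3 groups did not overlap: shUGDH-2 was highest, shNT intermediate and shUGDH-1 lowest. The log2 fold changes with shUGDH-2 were +0.31 (adjusted p = 0.0028), +0.26 (adjusted p = 2.1e-13) and +0.32 (adjusted p = 1.3e-05), and with shUGDH-1 they were -0.15, -0.17 and -0.66.

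The beta chain genes HLA-DRB1 (+0.40), HLA-DRB5 (+0.45) and HLA-DPB1 (+0.33) rose by a similar log2 amount, and HLA-DMA and HLA-DMB, which form the peptide exchange factor, rose by +0.27 and +0.35. HLA-DRB1 and HLA-DRB5 are near-identical over long stretches, and reads could have been shared between them in the authors' counting. CIITA and HLA-DMA met the shUGDH-2-only rule; the other 7 that rose fell with shUGDH-1 and so lie outside it. The X box factors RFX5 (-0.03, adjusted p = 0.67), RFXANK (-0.00, adjusted p = 0.98) and RFXAP (+0.03, adjusted p = 0.95) did not pass with shUGDH-2. The count of higher class II genes was 4 with DESeq2 and 5 without shUGDH-2 replicate 3. The calls of HLA-DMB and HLA-DRB5 were each lost in 5 of 17 alternative settings. In the class I and peptide loading list 2 of 26 rose (7.7%) and 3 fell (11.5%), against 8.04% and 6.81% of all genes tested. With DESeq2 1 rose. In that list the immunoproteasome subunit gene PSMB8 fell (-0.24), and TAPBP, the loading factor tapasin, rose (+0.11).

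**Figure D3:**
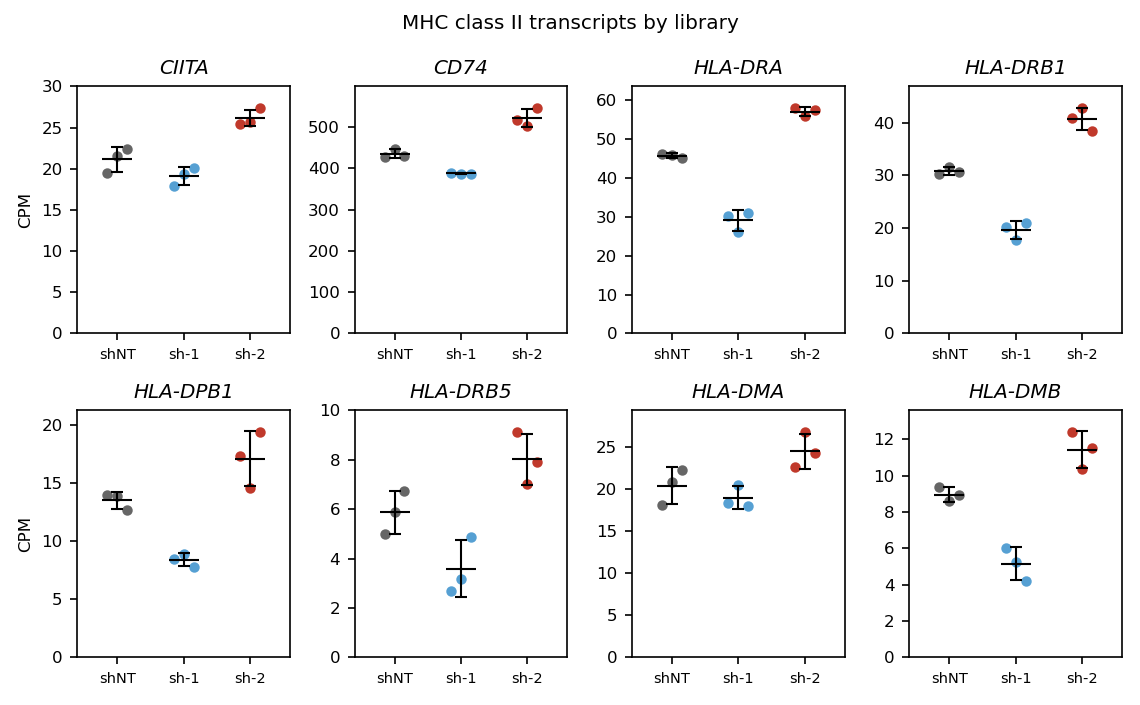
CPM of CIITA, CD74 and 6 HLA class II transcripts in each library (points) with the group mean and SD (bars), axes from 0; sh-1 and sh-2 are shUGDH-1 and shUGDH-2. Each panel shows the order shUGDH-1, shNT, shUGDH-2 from low to high by group mean.

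Promoters show which of these genes carry the letters that CIITA- and NF-kB-regulated promoters are known for. RefSeq's table (GRCh38.p14) gave the 250 bases before and 50 after the start of 10076 of the tested genes. Both strands were searched for the X box as GCAACNGAT, the Y box as CTGATTGG and the NF-kB consensus, with overlapping matches counted once per promoter. The Y box was in 4 of 11 class II promoters, in 5.68% of those of all tested genes and in 4.16% of the 27305 promoters in the table. The X box was in 3 of 11, 0.427% and 0.432%. Of the 7 promoters of class II genes that rose, 3 held the Y box and 2 the X box. Those with the X box were HLA-DRB1 and HLA-DRB5. The NF-kB consensus was in 8 of 20 promoters of the chemokine and cytokine list (40%) and in 4 of the 10 of its members that rose (40%), in 19.3% of those of shUGDH-2-only higher genes, in 7.45% of those of shUGDH-2-only lower genes and in 13% of all tested genes. In the cholesterol list the Y box was in 7 of 22 promoters and the X box in none. There the NF-kB consensus was in 4 of 22 promoters, and in 4 of the 11 of its members that rose (36.4%). A match is a description of the letters and not evidence of binding. The promoters of 3 genes that rose are shown, with the matches in capitals: HLA-DRB1 holds an X and a Y box, and LCN2 and CXCL2 each hold an NF-kB match.
HLA-DRB1, chr6:32589799-32590098, minus strand: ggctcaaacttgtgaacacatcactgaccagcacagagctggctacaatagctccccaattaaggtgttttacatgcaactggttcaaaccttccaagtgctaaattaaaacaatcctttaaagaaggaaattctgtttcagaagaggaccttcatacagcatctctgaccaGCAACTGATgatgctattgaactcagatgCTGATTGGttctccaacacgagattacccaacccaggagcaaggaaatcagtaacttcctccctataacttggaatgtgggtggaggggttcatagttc
LCN2, chr9:128149203-128149502, plus strand: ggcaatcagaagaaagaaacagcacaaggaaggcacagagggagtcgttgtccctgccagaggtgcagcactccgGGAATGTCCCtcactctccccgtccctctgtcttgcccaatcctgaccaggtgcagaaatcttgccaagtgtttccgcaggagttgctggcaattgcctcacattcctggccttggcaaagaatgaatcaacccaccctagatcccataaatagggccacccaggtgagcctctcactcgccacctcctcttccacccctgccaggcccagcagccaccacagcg
CXCL2, chr4:74099146-74099445, minus strand: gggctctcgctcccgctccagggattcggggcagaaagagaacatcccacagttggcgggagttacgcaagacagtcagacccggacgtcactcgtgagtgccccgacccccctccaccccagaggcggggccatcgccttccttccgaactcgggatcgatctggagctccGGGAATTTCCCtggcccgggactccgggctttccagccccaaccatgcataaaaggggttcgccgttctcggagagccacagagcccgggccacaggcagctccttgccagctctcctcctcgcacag
In HLA-DRB1 the X box begins at position -78 and the Y box at -49 relative to the start. The NF-kB match of CXCL2 begins at -78 and that of LCN2 at -175.

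On the lower side, the genes that build and run ribosomes moved together with small changes. Of 46 ribosome biogenesis and RNA polymerase I genes 19 fell (41.3%) and none rose (median log2 fold change -0.107, against -0.006 over all genes tested). Against the same controls shUGDH-1 gave 21 lower and none higher. DDX21, a helicase of rRNA processing, was at 505, 478 and 504 CPM with shNT and 408, 436 and 421 CPM with shUGDH-2. The shNT and shUGDH-2 libraries did not overlap (-0.23, SE 0.02, adjusted p = 2.2e-11). RRS1, a factor of large-subunit assembly, fell (-0.29), as did GAR1, a box H/ACA snoRNP protein gene (-0.25). UTP15 of the small-subunit processome and RRN3, the initiation factor of RNA polymerase I, had log2 fold changes of -0.24 and -0.21. The count of lower members was 7 with DESeq2 and 11 without shUGDH-2 replicate 1. The calls of GAR1, UTP15 and RRN3 were lost with DESeq2. That of GAR1 was also lost without shNT replicate 1, shUGDH-2 replicate 1 or shUGDH-2 replicate 2. That of RRN3 was also lost without shNT replicate 3 or shUGDH-2 replicate 2.

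Of 80 cytosolic ribosomal protein genes (RPL and RPS) 35 fell (43.8%) and none rose, led by RPS18 (-0.22, SE 0.02, adjusted p = 1e-12). This family has many pseudogenes that can take reads. The count was 21 with DESeq2, 22 without shNT replicate 2 and 23 without shNT replicate 3. With shUGDH-1, against the same controls, 26 of these genes fell and 2 rose. Of 42 translation factors 13 fell (31%) and none rose, and 8 were called without shUGDH-2 replicate 1. With shUGDH-1, 17 translation factors fell and 1 rose. The elongation factor gene EEF1A1 was at 4583, 4503 and 4485 CPM with shNT and 4185, 4117 and 4249 CPM with shUGDH-2 (-0.11), and EIF1AX, which scans for start codons with the small subunit, fell (-0.25). Of 13 host genes of small nucleolar RNAs, 6 fell with shUGDH-1. With shUGDH-2, 4 of the 13 fell (30.8%): SNHG1, SNHG3, SNHG6 and SNHG15. With DESeq2 2 were called, SNHG6 and SNHG15 being lost; SNHG6 was also lost without shUGDH-2 replicate 3, and SNHG1 without shNT replicate 2 or shUGDH-2 replicate 2. SNHG3 was shUGDH-2-only, at 54.6, 51.9 and 60.7 CPM with shNT and 43.5, 45.2 and 41.9 CPM with shUGDH-2, with 52.2, 51.8 and 49.7 CPM with shUGDH-1.

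Splicing genes fell in 14 of 54 cases (25.9%) with none higher, among them the kinase gene CLK1 (-0.26), the core particle gene SNRPE (-0.24) and the SR protein gene SRSF3 (-0.23). That count was 7 to 9 with DESeq2 or without shNT replicate 1, shNT replicate 3, shUGDH-2 replicate 1 or shUGDH-2 replicate 2. With shUGDH-1, 12 splicing genes fell and 3 rose. Cytosolic and mitochondrial chaperones numbered 39, of which 14 fell (35.9%) and 2 rose (5.1%). With shUGDH-1, 12 chaperone genes fell and 5 rose. HSP90AA1, the inducible cytosolic HSP90, was at 1855, 1817 and 1871 CPM with shNT and 1652, 1694 and 1696 CPM with shUGDH-2. The groups did not overlap (-0.14, SE 0.02, adjusted p = 1.9e-09), and the fall was larger than with shUGDH-1 (log2 difference -0.09, adjusted p = 5.3e-05). HSPE1, its mitochondrial partner chaperone gene HSPD1 and the cochaperone genes PTGES3 and DNAJA1 fell as well (-0.27, -0.13, -0.19 and -0.14). The small heat shock protein genes HSPB1 (+0.11) and HSPB8 (+0.21) were the 2 that rose. That higher count was 1 with DESeq2, without any 1 of the 3 shNT libraries, and without shUGDH-2 replicate 1 or shUGDH-2 replicate 3. The call of HSPB8 was lost in 5 of 17 alternative settings, and that of HSPB1 without shNT replicate 1. HSP90AA1, EEF1A1 and HSPD1 have pseudogenes that can share reads.

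**Figure D4:**
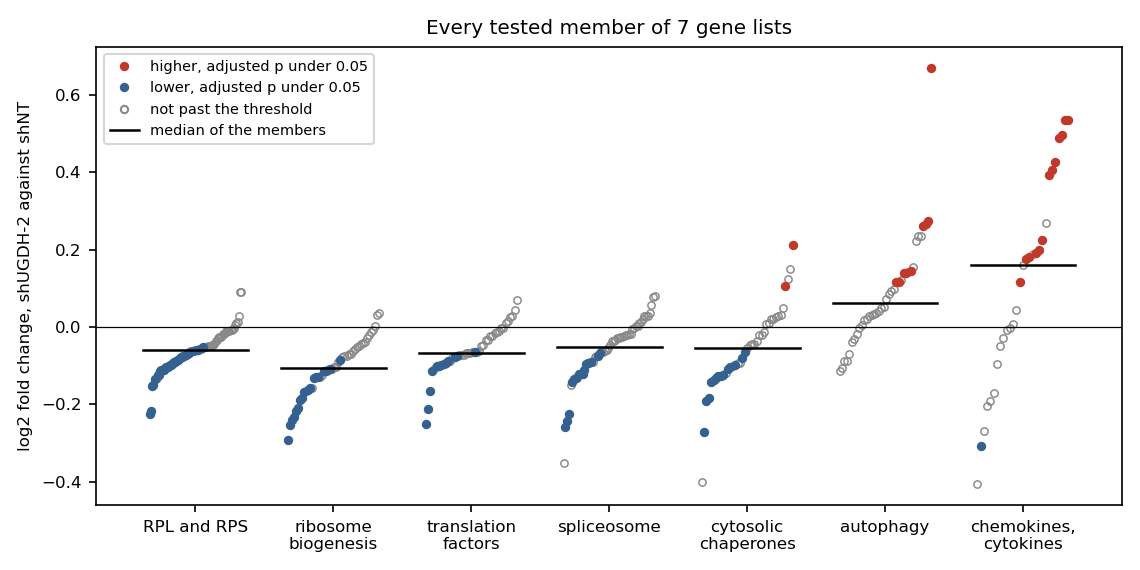
Log2 fold change with shUGDH-2 against shNT of every tested member of 7 gene lists, sorted within each list; filled points passed at an adjusted p under 0.05 (red higher, blue lower), open points did not, and the bar is the median of the members. The ribosome, translation, splicing and chaperone lists sit mostly below 0; the medians lie at or above -0.107, while autophagy and cytokine genes extend upward.

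Cell cycle genes that passed were mostly lower. Among mitosis and chromosome segregation genes 11 of 52 fell (21.2%) and 1, FOXM1, rose (1.9%), and 5 fell without shUGDH-2 replicate 1. BUB3, a spindle checkpoint protein gene, was at 238, 209 and 219 CPM with shNT and 179, 175 and 181 CPM with shUGDH-2, with 217, 214 and 211 CPM with shUGDH-1. It was shUGDH-2-only (-0.32, SE 0.03, adjusted p = 3.3e-11) and its shUGDH-2 libraries lay below all others. Of 49 DNA replication genes 6 fell (12.2%, against 6.81% of all genes tested) and none rose, and 3 fell without shUGDH-2 replicate 1. PCNA, the sliding clamp, was shUGDH-2-only (-0.15, adjusted p = 0.0017, against +0.04 with shUGDH-1).

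Among 39 glycolysis and hypoxia genes 8 fell (20.5%) and 4 rose (10.3%), against 6.81% and 8.04% of all genes tested. Of the 8, 5 met the shUGDH-2-only rule, while HK2 and SLC2A1 fell with both hairpins. ADM, the hypoxia-induced vasodilator adrenomedullin, was at 24, 22.2 and 23 CPM with shNT and 16.1, 15.3 and 17 CPM with shUGDH-2, with 20.5, 20.5 and 21.2 CPM with shUGDH-1. Its shUGDH-2 libraries were the lowest (-0.52, SE 0.08, adjusted p = 2.6e-06). The glycolytic enzyme genes PGAM1 (-0.17) and GAPDH (-0.08), the lactate dehydrogenase gene LDHA (-0.07) and the mitophagy receptor gene BNIP3 (-0.15) were the others. The count of 8 fell to 5 with DESeq2 and to 5 without shUGDH-2 replicate 2, and that of 4 to 1 with DESeq2 and to 2 without shUGDH-2 replicate 1. The call of BNIP3 was lost with DESeq2 and without shNT replicate 1.

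Immediate-early genes split, with 7 of 38 higher (18.4%) and 6 lower (15.8%). EGF ligands, their receptors and ERK feedback genes did too, with 10 of 39 higher (25.6%) and 8 lower (20.5%), and 6 higher with DESeq2. FOS, an AP-1 subunit induced within minutes of growth factor signalling, was at 74.6, 81.4 and 72.6 CPM with shNT and 64, 61 and 63.8 CPM with shUGDH-2, with 89.4, 97.4 and 94.7 CPM with shUGDH-1. The groups did not overlap and the hairpins moved it in opposite directions (-0.28, adjusted p = 1.8e-05, and +0.30, adjusted p = 4.7e-07). The stress gene ATF3 (-0.14 and +0.20) and the MAP kinase phosphatase gene DUSP1 (-0.20 and +0.17) did the same. JUN was at 211, 209.6 and 212 CPM with shNT and 178, 181 and 182 CPM with shUGDH-2, with 207, 211 and 222 CPM with shUGDH-1, and together with the zinc-finger gene KLF6 (-0.19) it was lower with shUGDH-2 only. EGR1 (+0.26), NR4A1 (+0.17) and JUND (+0.56) rose with both hairpins, and MYC rose with shUGDH-2 (+0.13) and fell with shUGDH-1 (-0.07). Among the ligands, EREG, which encodes the EGF receptor ligand epiregulin, was at 118, 112 and 110.2 CPM with shNT and 131, 131 and 126 CPM with shUGDH-2, with 76.8, 77.4 and 71.4 CPM with shUGDH-1, so that shUGDH-2 was above the control and shUGDH-1 well below it.

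Of 44 TGF-beta family genes 11 rose (25%) and 5 fell (11.4%), and the lower count was 2 with DESeq2 and 3 without shNT replicate 3. INHBA, the subunit of activin A, was at 3.76, 3.4 and 4.86 CPM with shNT and 9.94, 10.6 and 11.6 CPM with shUGDH-2, and rose with both hairpins (+1.42 and +1.70). FST, the activin antagonist follistatin, was at 16.4, 17.5 and 16.2 CPM with shNT and 26.8, 25 and 29.6 CPM with shUGDH-2, with 21.3, 23 and 22.5 CPM with shUGDH-1. It rose with both hairpins and further with shUGDH-2 (log2 difference +0.28, adjusted p = 0.0073). GDF15, a stress-induced divergent family member, was at 13.1, 14.7 and 15.5 CPM with shNT and 18.4, 22.9 and 21.7 CPM with shUGDH-2, with 13.5, 14 and 13.7 CPM with shUGDH-1 and was shUGDH-2-only. Its shUGDH-2 libraries were the highest of the 9. The inhibitory SMAD7 fell with both hairpins (-0.41 and -0.31), and the BMP effector gene SMAD5 fell with shUGDH-2 only (-0.29, adjusted p = 1.3e-05).

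In the IGF axis 7 of 16 genes rose (43.8%) and none fell. PAPPA, a protease that frees insulin-like growth factors, was at 3.38, 3.06 and 3.66 CPM with shNT and 7.33, 7.01 and 6.95 CPM with shUGDH-2, with 21.2, 23.2 and 23.8 CPM with shUGDH-1, so its rise was smaller than with shUGDH-1 (log2 difference -1.67, adjusted p = 3.5e-20). INSR, the insulin receptor, was shUGDH-2-only (+0.20, adjusted p = 0.0025), and STC1, which encodes the PAPPA inhibitor stanniocalcin 1, rose with shUGDH-2 (+0.12) and fell with shUGDH-1 (-0.31). Autophagy genes rose in 9 of 38 cases (23.7%) with none lower. They include the transcription factors FOXO1 (+0.67) and FOXO3 (+0.26), the initiating kinase ULK1 (+0.27) and the phosphoinositide-binding WIPI1 (+0.27). FOXO3 was at 46.6, 43.4 and 44.1 CPM with shNT and 55.1, 56.6 and 49.2 CPM with shUGDH-2, with 42.4, 44.5 and 40.3 CPM with shUGDH-1, and was shUGDH-2-only; its pseudogene FOXO3B can share reads. In the Wnt and Hippo list 9 of 41 rose (22%) and 1 fell (2.4%). WNT10A went from 3.22 ± 0.40 CPM to 5.93 ± 0.41 CPM (SD, n = 3) and was shUGDH-2-only. Among 23 Notch genes 6 rose (26.1%) and 2 fell (8.7%), or 3 and 0 with DESeq2. The feedback inhibitor gene NRARP (+0.36) and the coactivator gene MAML3 (+0.75) were shUGDH-2-only.

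Of 28 cholesterol genes 15 rose (53.6%) and none fell, and of 36 epithelial junction and keratin genes 16 rose (44.4%) and 2 fell (5.6%), with 10 higher by DESeq2. With shUGDH-1, against the same controls, 19 and 21 rose. In the test between the hairpins 15 of the 36 epithelial genes were lower with shUGDH-2 and 2 higher. The summed level of the luminal breast markers, 8 of which were tested, ran from 1285 to 1310 CPM with shNT and from 1439 to 1472 CPM with shUGDH-2; it includes keratins of the epithelial list, and its part in the result was not tested. KRT80, a type II keratin of differentiated epithelia, went against its family: it was at 352, 361 and 355 CPM with shNT and 293, 281 and 292 CPM with shUGDH-2, with 368, 373 and 374 CPM with shUGDH-1, and was shUGDH-2-only (-0.30, SE 0.02, adjusted p = 2.4e-15). Other keratins, KRT8 (+0.15), KRT18 (+0.15) and KRT19 (+0.21), rose. CPOX, an enzyme of heme synthesis, fell with both hairpins and further with shUGDH-2 (-0.57 and -0.23, adjusted p of the difference 1.4e-09).

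Among the genes that moved with shUGDH-2 only, the one with the largest rise was PDZK1IP1, a small membrane protein gene of epithelial tumours, at 2.15, 1.96 and 3.07 CPM with shNT and 5.9, 7.08 and 6.71 CPM with shUGDH-2, with 2.23, 3.39 and 3.47 CPM with shUGDH-1. The shUGDH-2 libraries stood apart from both other groups (+1.46, SE 0.19, adjusted p = 1.5e-08). EDN2, which encodes the vasoactive peptide endothelin 2, was at 9.22, 8.67 and 9.54 CPM with shNT and 13.6, 15.8 and 18.6 CPM with shUGDH-2, with 9.7, 10.5 and 9.44 CPM with shUGDH-1. BMF, a BH3-only activator of apoptosis, was at 4.53, 4.42 and 4.34 CPM with shNT and 7.24, 8.47 and 8.0 CPM with shUGDH-2, with 5.08, 4.66 and 4.23 CPM with shUGDH-1. Its shUGDH-2 libraries did not overlap the others. Of 33 apoptosis genes 2 rose (6.1%) and 4 fell (12.1%), against 8.04% and 6.81% of all genes tested. PMAIP1, another BH3-only gene, and the survival gene MCL1 were among those that fell with shUGDH-2 only (-0.21 and -0.21). The higher count was 1 with DESeq2 and without shNT replicate 1, shNT replicate 3, shUGDH-2 replicate 1 or shUGDH-2 replicate 3, and the lower count was 2 with DESeq2 and without shNT replicate 1. The teneurin gene TENM3 rose from 29.8 ± 0.32 CPM to 42 ± 0.71 CPM (SD, n = 3). Among the lower genes, C5orf15 (-0.38), the AP2-associated kinase BMP2K (-0.32) and the deubiquitinase YOD1 (-0.38) joined BUB3, KRT80 and ADM. Only 11 of the 147 higher genes and 2 of the 120 lower genes exceeded 1.5-fold against both shNT and shUGDH-1.

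**Figure D5:**
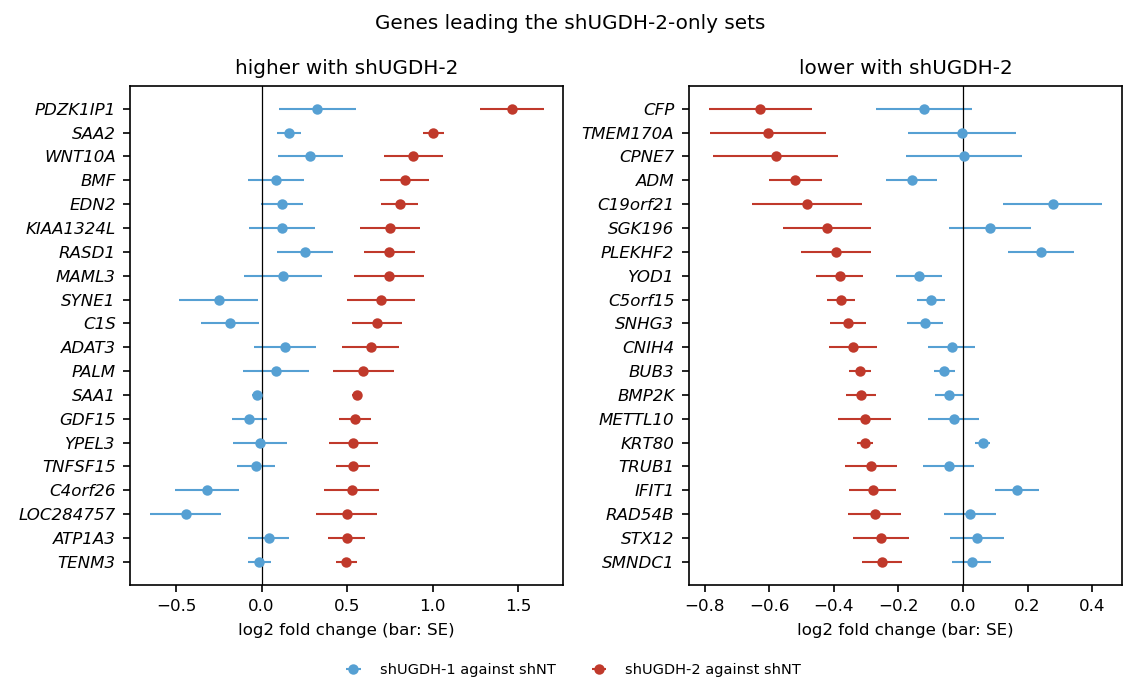
Log2 fold change (points, bar: SE) against shNT for shUGDH-2 (red) and shUGDH-1 (blue) of the 20 genes that lead the shUGDH-2-only sets in each direction; the genes were chosen for this difference. The red points lie away from 0 and the blue points near it, with LOC284757 and C4orf26 among the higher set showing a negative shUGDH-1 value that did not pass.

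KYNU, which encodes kynureninase of tryptophan breakdown, was at 5.07, 5.61 and 4.77 CPM with shNT and 6.07, 8.16 and 6.79 CPM with shUGDH-2, with 2.62, 1.96 and 3.8 CPM with shUGDH-1. It rose with shUGDH-2 and fell with shUGDH-1 (+0.45 and -0.94), and the log2 difference between the hairpins was +1.39 (SE 0.18, adjusted p = 2.6e-08); the call against shNT was lost in 6 of 17 alternative settings. The aryl hydrocarbon receptor targets CYP1A1 (-0.59) and CYP1B1 (-0.43), which stand in the same list, fell with both. ER chaperone and unfolded protein response genes numbered 45, of which 11 rose (24.4%) and 3 fell (6.7%, and 1 gene without shNT replicate 1). XBP1 (+0.26) and HERPUD1 (+0.26) rose with both hairpins, whereas the phosphatase subunit gene PPP1R15A fell (-0.25) and did so further than with shUGDH-1 (adjusted p of the difference 2.1e-08).

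TIMP3, an inhibitor of matrix metalloproteases that is bound to the extracellular matrix, showed a large contrast between the hairpins. It was at 29.3, 31.1 and 32.2 CPM with shNT and 17.6, 17 and 19.3 CPM with shUGDH-2, with 44.2, 43.6 and 45.4 CPM with shUGDH-1. The 3 groups did not overlap: shUGDH-2 was lowest and shUGDH-1 highest (-0.78, adjusted p = 1e-12, and +0.52, adjusted p = 1.3e-09). COL1A2, a chain of type I collagen, showed the same order, from 6.18 ± 0.24 CPM with shNT to 3.84 ± 0.88 CPM with shUGDH-2 and 11.8 ± 1.58 CPM with shUGDH-1 (SD, n = 3).

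The guide's seed match, AAGTATA, was searched for in the 3′ UTRs of 10894 tested genes of at least 50 bases (GENCODE transcripts, GRCh38). Of these, 1450 genes (13.3%) held it. Among genes with the match 84 rose and 170 fell with shUGDH-2 (11.7% lower, against 6.45% of genes without it), with a median log2 fold change of -0.038. The same genes had the same median, -0.038, with shUGDH-1, whose seed differs, and the median between the hairpins was -0.005. UTRs with the match were longer, with a median of 3027 against 895 bases. Split by UTR length into short, middle and long classes of about equal size, 5.33%, 11.9% and 12.1% of genes with the match fell, against 6.11%, 6.16% and 7.3% without it; the short class had 75 genes with the match. Of the 110 shUGDH-2-only lower genes with a UTR 27 held the match (24.5%), and of the 132 higher ones 13 did (9.85%). In the short, middle and long classes, 1 of 75, 7 of 310 and 19 of 1065 genes with the match were shUGDH-2-only lower. Without it these were 35 of 3569, 25 of 3313 and 23 of 2562. Of 538 genes with the match followed by A, 5 were shUGDH-2-only lower and 2 higher. Of 310 genes with the match at 2 or more places, 2 were lower and 1 higher. Of the 20 lower ones with the largest changes, 16 had a UTR, and of these BUB3, KRT80 and PLEKHF2 each held 1 match. The site of PLEKHF2 is not shown, and those of BUB3 and KRT80, with the match in capitals, read:
BUB3, chr10:123168139-123168165, plus strand: agcaaatttcAAGTATAcaattcatta
KRT80, chr12:52169705-52169731, minus strand: aagacatataAAGTATAtattattttt
Both sites pair with the 7 seed bases, and whether the guide acts there was not tested.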

How the data were processed

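The 9 libraries of MDA-MB-231 cells were sequenced as paired-end mRNA libraries, 3 each for shNT, shUGDH-1 and shUGDH-2. The authors deposited raw counts per gene for all 9. They also deposited a table of log2 fold changes with p-values, from which only the printed UGDH value and the counts of calls in the closing section were taken. Per the submitters' processing notes STAR, DESeq and DESeq2 were used with hg19. Tool versions, gene annotation and counting program were not given in the sources used here. Groups came from the titles, descriptions and hairpin sequences in the labels. Of 23710 entries, 28 carry date-like names and hold 0.232% of the counts, and these were not named. The genes tested hold 99.93% of the counts.

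Counts were filtered with filterByExpr over the 3 groups and scaled by TMM (factors 0.9968 to 1.0029). All 9 libraries were fitted with edgeR 4.0.16 (R 4.3.3) by robust quasi-likelihood with group means and 6 residual degrees of freedom, two-sided, with Benjamini-Hochberg adjustment over all 12546 genes tested. The common biological coefficient of variation was 0.0202. Standard errors were taken as the absolute log2 fold change over the square root of F. The script was tested on simulated data. DESeq2 1.42.0, other scalings, other filters, a replicate block and leaving out each library were tried as alternatives. The comparisons of shUGDH-1 and shUGDH-2 with shNT share the shNT libraries, and the shUGDH-2-only rule uses the shUGDH-2 libraries in both of its tests.

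The gene lists and members were chosen with earlier results of these data known, so counts in a list are a description. The text names UGDH and, in each list, up to 8 members that passed and averaged 1 CPM or more in either group, by size of change. It names all such members of the cytokine, receptor, NF-kB, acute-phase, complement and epithelial transcription factor lists where they add to the text, the 20 leading shUGDH-2-only genes each way with at least 3 CPM, and the 10 smallest p-values each way. GAPDH, LDHA, HSPB1, RFX5, RFXANK, RFXAP, VIM and CD44 lie outside that rule and were chosen after their values were seen. Promoters are RefSeq's, and 3′ UTRs and hairpin matches were searched in GENCODE transcripts, both on GRCh38, while counts were made on hg19.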

Additional observations from a re-analysis of the deposited data

Results flagged for a closer look

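The hairpins against UGDH moved 53 genes in opposite directions relative to shNT, with the difference between shUGDH-2 and shUGDH-1 itself past an adjusted p of 0.05 (edgeR's quasi-likelihood test, Benjamini-Hochberg adjusted): 33 were higher and 20 lower with shUGDH-2. Both comparisons share the shNT libraries. Among class II genes the log2 difference, shUGDH-2 minus shUGDH-1, was 1.21 for HLA-DRB5, 1.12 for HLA-DMB, 1.06 for HLA-DRB1, 1.01 for HLA-DPB1, 0.98 for HLA-DRA and 0.43 for CD74. Among secreted factors and enzymes it was 1.39 for KYNU, 0.77 for EREG, 0.43 for STC1, 0.32 for IL6 and 0.29 for CSF1. MYC differed by 0.20. In the other direction the matrix genes COL1A2, TIMP3 and CSPG4 differed by -1.60, -1.30 and -0.72, and the immediate-early genes FOS, DUSP1 and ATF3 by -0.58, -0.36 and -0.35. With 3 libraries a group, no search for single outlying libraries was made.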

How the results depend on the processing

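Of 1864 genes that passed for shUGDH-2 against shNT (1009 higher, 855 lower), DESeq2 called 933 (570 higher, 363 lower), of which 930 were shared, and an adjusted p under 0.01 left 1049 (616 and 433). Leaving out 1 library at a time gave 1252 to 1846 genes, 756 to 1031 higher and 496 to 815 lower, with 496 reached without shUGDH-2 replicate 1. Of the 267 shUGDH-2-only genes (147 and 120), DESeq2 gave 119 (74 and 45, 110 shared in all), and leaving out 1 library gave 182 to 249 (111 to 151 and 71 to 101), with 71 lower without shUGDH-2 replicate 1, 75 without shUGDH-2 replicate 3 and 77 without shUGDH-1 replicate 2. Without the condition on shUGDH-1 against shNT the rule gave 346 genes. Without scaling beyond library size 959 genes rose and 935 fell. UGDH stayed between -2.98 and -2.83 when 1 library was left out. The authors' deposited table calls 1254 of 12252 genes at an adjusted p under 0.05, and 1244 of them passed here in the same direction. Same-numbered shNT and shUGDH-2 libraries did not deviate together (correlations of -0.097, -0.082 and -0.007 over 9240 genes). Deviations from a mean of 3 libraries constrain each other, so these correlations cannot decide whether same-numbered cultures were handled together. The labels do not say. With the replicate number as a block 1857 genes passed (993 higher, 864 lower), 261 of them shUGDH-2-only (145 and 116), and UGDH was at -2.89.

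Of 145 named genes that passed, 104 kept their call in all 17 settings, none changed direction and 41 lost it in at least 1. CD68, HK2, HLA-DMB, HLA-DRB5, HSPB8, KYNU and LOC284757 lost it in 5 or more, KYNU also with the replicate block. Among genes whose losses are not given above, C4orf26, HLA-DPB1 and STAT3 lost the call in 4 settings. CLK1, HLA-DMA, IL32 and NRARP lost it in 3, and HSPE1, MX1 and SLC2A1 in 2. IL1R1, MAML3, SNRPE, SRSF3, STAT2 and TNFSF9 lost it in 1. The cause was not tested. At these depths and this spread, changes of low transcripts such as C1S, WNT10A and HLA-DRB5 are the least precise. Members of a list share libraries.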
